A study of Mus musculus with 12 samples.

Results

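The RNA of 8 genes whose products remove ubiquitin from histone H2A, or help to do so, was followed in mouse embryonic stem cells (ESCs). These cells lack Ring1A and lose endogenous Ring1B on treatment. The 8 genes are Bap1, Asxl1, Asxl2, Usp16, Usp21, Usp22, Mysm1 and Usp3. They were followed through every probe set (a group of short array oligos that reads 1 transcript region) annotated to one of these symbols alone, which were 23 of the 34945 probe sets with 1 symbol. All 23 passed the filter on dim probe sets, and averaging them per gene gave 8 of the 16432 genes tested. All cells were 129/B6 hybrid ESCs of the genotype Ring1A-/-; Ring1B fl/fl; Rosa26::CreERT2, in which 4-hydroxytamoxifen (OHT) switches on the Cre recombinase that deletes endogenous Ring1B. The OHT+ cells had received 800 nM OHT for 24 h and were taken on day 2, and the OHT- cells of the same line were untreated. There were 6 lines with 1 array at each state, 12 arrays in all. The mock line carried an empty vector, so that on OHT it loses Ring1B in addition to Ring1A, which is already absent before OHT. The 3 mutant lines carried Ring1B (I53S), as lines #1 and #4, or Ring1B (I53A), as line #1, which cannot work with the E2 enzyme. The 2 WT lines, #1 and #3, carried wild-type Ring1B. Each line is a stable transfectant that the study measured once per state, so p-values speak of the spread between these lines, and the single mock line borrows its spread from the others. The cells were grown on irradiated fibroblast feeders or on gelatin, and the labels do not say which of these an array had.

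Ring1A and Ring1B are the E3 ligases of Polycomb repressive complex 1 (PRC1) and put a single ubiquitin on a lysine of H2A (H2AK119u1), a mark of repressed developmental genes in ESCs. The mark is taken off again by deubiquitinases. Bap1 is the catalytic subunit of the complex called PR-DUB, first described in Drosophila, and needs an Asxl protein, such as Asxl1 or Asxl2, to be active. Usp16, Usp21, Usp3 and the metalloprotease Mysm1 act on H2A outside PR-DUB, and Usp22 is the enzyme of the SAGA coactivator complex, which acts on H2B as well as H2A.

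PRC1 is known to gather at promoters rich in CG dinucleotides, so CG content was counted as a sequence feature that the choice of genes did not use. RefSeq promoters (GRCm38.p6, 250 bases before the start used in the promoter annotation) were matched for 7 of the 8 genes, all but Usp22. For Bap1, Mysm1 and Usp3 this window reaches into the annotated span of the gene. That of Bap1 is chr14:31251239-31251488, and the gene is annotated from 31251352. Searching for the letters CG, which read the same on both strands, found 43 in Bap1, 31 in Asxl2, 19 in Mysm1, 18 in Usp3, 14 in Usp21, 12 in Usp16 and 11 in Asxl1. The median was 18, against 6 over all 32851 promoters of the annotation, which were not limited to genes tested on the arrays. Of these promoters, 35.6% held at least the 11 of Asxl1, while 5.19% held at least the 31 of Asxl2. The promoters of Asxl1 (chr2:153345580-153345829, plus strand) and Asxl2 (chr12:3426607-3426856, plus strand) are shown because these paralogs carry the same role in PR-DUB and differ in this feature. Every CG is in capitals.
Asxl1: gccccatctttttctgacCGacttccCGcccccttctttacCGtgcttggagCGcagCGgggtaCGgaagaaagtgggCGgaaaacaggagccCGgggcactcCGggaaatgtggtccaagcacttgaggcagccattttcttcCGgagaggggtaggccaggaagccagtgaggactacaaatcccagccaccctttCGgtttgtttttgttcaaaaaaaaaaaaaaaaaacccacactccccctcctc
Asxl2: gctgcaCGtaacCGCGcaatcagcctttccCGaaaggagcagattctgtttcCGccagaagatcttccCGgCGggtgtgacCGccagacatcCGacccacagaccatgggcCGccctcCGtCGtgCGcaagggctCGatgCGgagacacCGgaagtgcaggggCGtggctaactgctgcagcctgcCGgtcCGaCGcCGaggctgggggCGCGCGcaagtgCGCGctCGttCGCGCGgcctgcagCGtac
The arrays do not measure binding or ubiquitin at these promoters. The paper mapped Ring1B and H2AK119u1 at ESC promoters by ChIP-on-chip, and those maps were not used here.

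Values are log2 signals after quantile normalization, and a difference is OHT+ minus OHT- within a line. Over all 16432 genes the median difference of a line lay between -0.0088 and 0.0075, and the SD between 0.316 and 0.507. As a check of the labels, the log2 difference of Zic1, a Polycomb target, was 3.76 in the mock line, 2.39, 2.89 and 2.32 in I53S #1, I53S #4 and I53A #1, and 0.36 and 0.32 in WT #1 and WT #3. That of Hoxa10, another Polycomb target, was 2.90 in the mock line, 2.04, 2.19 and 2.22 in the mutant lines, and -0.13 and 0.41 in the WT lines. Rnf2, the gene of Ring1B, and Ring1, the gene of Ring1A, were not called in the mutant lines. They check no label, since it is unknown whether their probe sets fall inside the deleted exons. The 9 ESC markers were all measured, with a summed linear signal between 50618 and 59751 in OHT+ arrays and between 50717 and 59914 in OHT- arrays. This sum follows the brightest markers. In the mutant lines Klf4, a pluripotency factor, was called higher (0.55, adjusted p = 0.0354 by limma), and 0 of the 9 were called lower, with a median log2 difference of -0.24 and 6 of 9, Klf4 included, at an unadjusted p under 0.05. Sox2 stood at -0.33 and Esrrb at -0.32 there. Their part in the values of the 8 genes was not tested.

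None of the 8 genes passed the test in any comparison. In limma's fit across all genes (adjusted p under 0.05 by Benjamini and Hochberg), 0 of 8 were called in the 3 mutant lines, where 6.46% of all genes were called, and 1 of 8 had an unadjusted p under 0.05, where 23.7% of all genes had. In the mock line 0 of 8 were called, against 1.67% of all genes, and 1 of 8 had an unadjusted p under 0.05, against 19.9%. In the WT lines 0 of 8 and 0% of all genes were called, and 0 of 8 had an unadjusted p under 0.05, against 7.61%. The median log2 difference of the 8 genes in the mutant lines was -0.082, against -0.0067 over all genes. A gene that misses the threshold is not shown to be the same in both states, and the intervals of the 8 genes in the mutant lines bound each difference between -0.587 and 0.417.

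**Figure D1:**
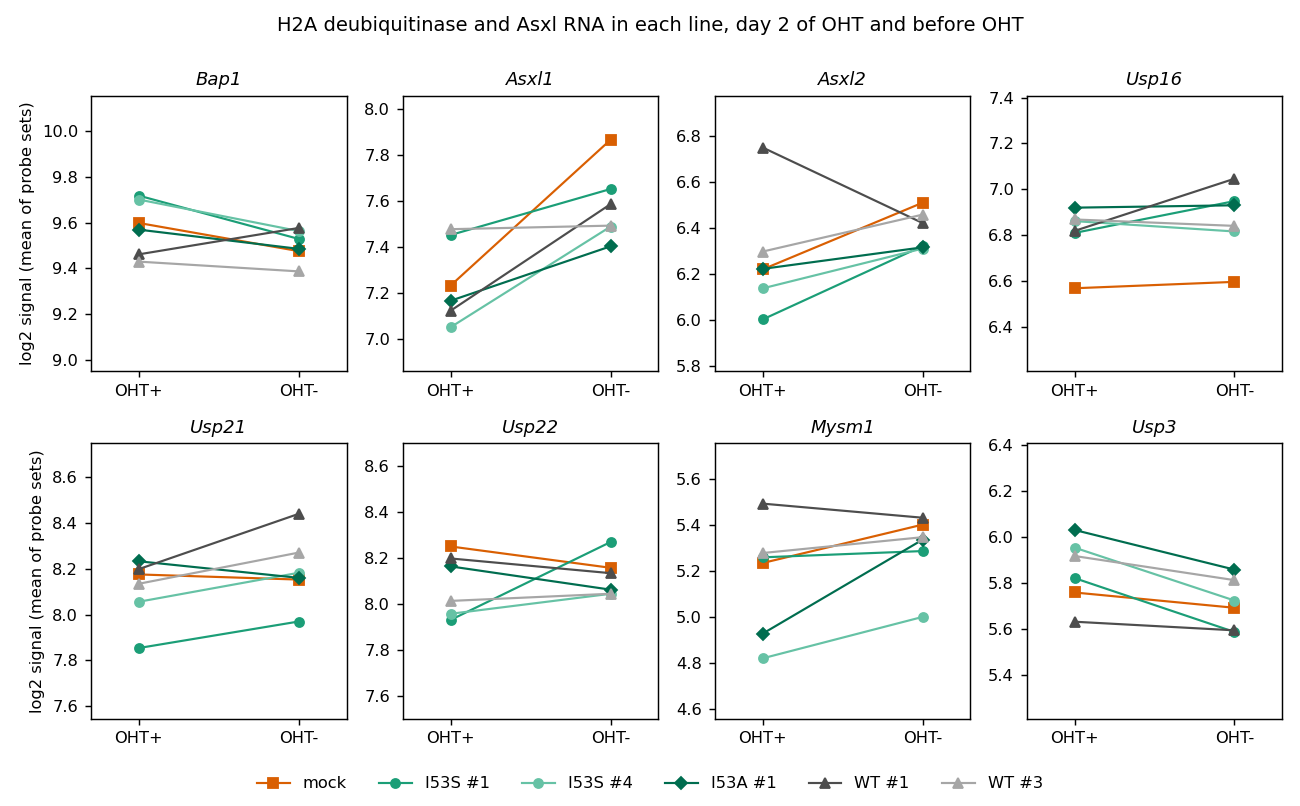
Log2 signal of each of the 8 genes (mean of its probe sets, vertical axis, each panel spanning the same range of log2 units) in OHT+ cells at the left and OHT- cells at the right, with a line joining the 2 arrays of each cell line. Asxl1 slopes toward a lower OHT+ signal in all 6 lines and Usp3 toward a higher one on this normalized scale, while the other panels hold lines of both slopes.

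Before OHT the SDs of the 8 gene means over the 6 lines lay between 0.069 for Bap1 and 0.164 for Asxl1. Single probe sets varied more, up to an SD of 0.433 at 1460159_at of Mysm1. In limma's fit 0 of 8 were called between mutant and WT lines, as were 0% of all genes, and 0 of 8 had an unadjusted p under 0.05, where 5.25% of all genes had. For 3 of 8 genes every mutant line lay below every WT line, where 10.2% of all genes did so and 20.4% did not overlap in either direction. Asxl2 read 6.32, 6.31 and 6.32 in I53S #1, I53S #4 and I53A #1, against 6.42 and 6.46 in WT #1 and WT #3. At its brightest probe sets the mutant and WT lines overlapped. In the same order, 1439063_at read 8.36, 8.12 and 8.22, against 8.35 and 8.39. Probe set 1460597_at read 8.09, 8.26 and 8.20, against 7.86 and 8.30. The dimmer 1444754_at kept them apart, with 5.80, 6.03 and 6.07, against 6.21 and 6.19. Usp21 read 7.97, 8.18 and 8.16 in the mutant lines in the same order, against 8.44 and 8.27 in the WT lines. Mysm1 read 5.29, 4.999 and 5.34 in the mutant lines, against 5.43 and 5.35 in the WT lines. The nearest mutant and WT lines stood closest for Mysm1. The differences of mutant minus WT lines were -0.12 ± 0.147, -0.25 ± 0.162 and -0.18 ± 0.172 (limma estimate ± SE) for Asxl2, Usp21 and Mysm1, with adjusted p = 0.965, 0.951 and 0.958. The deposited values, used without normalization, put the median of all genes at 0.28, and on them Asxl2 stood at 0.21 and Mysm1 at 0.16, which is -0.075 and -0.12 relative to that median.

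Bap1, the catalytic subunit of PR-DUB, read 9.60 in OHT+ cells and 9.48 in OHT- cells of the mock line. In the mutant lines it read 9.72 in OHT+ and 9.53 in OHT- cells of I53S #1, 9.70 and 9.56 in I53S #4, and 9.57 and 9.49 in I53A #1. In the WT lines it read 9.46 in OHT+ and 9.58 in OHT- cells of #1, and 9.43 and 9.39 in #3. OHT+ cells were above OHT- cells in the mock line and all 3 mutant lines, and each of these differences (0.12 in the mock line, and 0.19, 0.14 and 0.084 in the mutant lines) was above those of the WT lines (-0.11 and 0.043), while with the values as deposited, where the median of all genes in the mock line was -0.34, Bap1 stood at -0.27 in the mock line. Bap1 was one of 3 genes, with Usp21 and Usp3, whose mutant lines all lay above both WT lines in this difference, where 16.1% of all genes did so, and 0 of 8 had all mutant lines below, where 15% of all genes did. The limma estimate was 0.14 ± 0.0874 (SE, 3 lines) in the mutant lines, with adjusted p = 0.409, and 0.17 for mutant minus WT lines, with a 95% interval from -0.168 to 0.514 and adjusted p = 0.669. Both probe sets of Bap1 derive from 1 transcript record, so they are not independent readings. At 1426354_at the mutant differences were 0.23, 0.058 and 0.16, against -0.22 and 0.094 in the WT lines. There I53S #4 lay below WT #3, and the mock line stood at 0.094. At 1452039_a_at the differences were 0.15 in the mock line, 0.15, 0.22 and 0.0083 in the mutant lines, and -0.012 and -0.0090 in the WT lines.

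Asxl1, a scaffold that activates Bap1, had the lowest estimate of the 8 genes in each class of lines, WT lines included (-0.24 ± 0.146 there, SE, 2 lines, adjusted p = 0.786 by limma). It read 7.23 in OHT+ cells and 7.87 in OHT- cells of the mock line. In the mutant lines it read 7.45 and 7.65 in OHT+ and OHT- cells of I53S #1, 7.05 and 7.49 in I53S #4, and 7.17 and 7.40 in I53A #1. In the WT lines it read 7.12 and 7.59 in OHT+ and OHT- cells of #1, and 7.48 and 7.49 in #3. OHT+ cells were thus below OHT- cells in all 6 lines, where 6.27% of all genes did so, by as little as 0.016 in WT #3. The mock estimate was -0.64 ± 0.207 (SE, 1 line, adjusted p = 0.18 by limma) and the mutant estimate -0.29 ± 0.12 (SE, 3 lines, 95% interval from -0.587 to 0.0031, adjusted p = 0.215). With the values as deposited, the mock estimate was -1.01 and was called (adjusted p = 0.0497, where 4.47% of all genes were called lower), which is -0.67 relative to the median of all genes. Over the 12 alternatives tried for it, this adjusted p ran between 0.0497 and 0.376.

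The probe sets of Asxl1 did not run alike in the WT lines. Probe set 1434561_at, the one with the highest mean signal, read 9.02 in OHT+ and 9.44 in OHT- cells of the mock line, 9.16 and 9.47 in I53S #1, 9.05 and 9.16 in I53S #4, and 9.27 and 9.39 in I53A #1. In the WT lines it read 9.33 in OHT+ and 9.21 in OHT- cells of #1, and 9.35 and 9.11 in #3. So the mock and mutant differences (between -0.42 and -0.11) lay below those of the WT lines (0.12 and 0.23). Probe set 1435077_at also held the mock and mutant lines below both WT lines, with -0.33 in the mock line, -0.29, -0.44 and -0.029 in the mutant lines, and 0.081 and 0.047 in the WT lines. Probe set 1458380_at, whose signal (3.35 to 5.17) reached below the filter's threshold of 3.94, gave -1.15 in the mock line, -0.0086, -0.77 and -0.57 in the mutant lines, and -1.60 and -0.33 in the WT lines, and it sets the sign of the gene mean in the WT lines. With 1434561_at alone, mutant minus WT lines stood at -0.35 ± 0.143 (95% interval from -0.711 to 0.0050, adjusted p = 0.392 by limma), against -0.052 ± 0.189 for the mean of the 3 probe sets (adjusted p = 0.945). A filter on the mean signal at the median of all values left 1434561_at and 1435077_at. Their mean gave -0.33 ± 0.125 for mutant minus WT lines (95% interval from -0.638 to -0.0314, adjusted p = 0.276 by limma), which was not called.

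For Asxl2, the other Asxl scaffold followed, limma's estimates were -0.29 ± 0.212 (mock line) and -0.20 ± 0.123 (mutant lines, SE), with adjusted p = 0.508 and 0.399. Its differences were -0.29 in the mock line, -0.32, -0.17 and -0.094 in the mutant lines, and 0.33 and -0.16 in the WT lines, so the mock line, I53S #1 and I53S #4 lay below both WT lines, and I53A #1 lay between the WT lines. Of its 5 probe sets, 1444754_at and 1460597_at held all mutant lines below both WT lines, and both were singled out after their values were seen. At 1439063_at, the probe set of highest mean signal, the mutant and WT lines overlapped. Its differences were -0.043 in the mock line, -0.27, 0.023 and 0.038 in the mutant lines, and 0.20 and -0.078 in the WT lines. At 1460597_at, the brighter of the pair singled out, the differences were 0.17 in the mock line, -0.14, -0.11 and -0.031 in the mutant lines, and 0.24 and 0.080 in the WT lines. There the mock line lay between the WT lines. Probe set 1444754_at read 5.95 in OHT+ and 6.25 in OHT- cells of the mock line, 5.10 and 5.80 in I53S #1, 5.81 and 6.03 in I53S #4, and 5.93 and 6.07 in I53A #1. In the WT lines it read 6.53 in OHT+ and 6.21 in OHT- cells of #1, and 6.40 and 6.19 in #3. At this probe set the mock line and all 3 mutant lines were lower in OHT+ cells and both WT lines were higher. In the probe set fit the estimate of 1444754_at was -0.35 ± 0.139 in the mutant lines (adjusted p = 0.226 by limma). It was 1 of the 3 member probe sets, of 23, with an unadjusted p under 0.05 there, where 21.2% of all probe sets had one, and 0 of 23 were called, where 3.76% of all were.

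Usp16, an H2A deubiquitinase known in mouse ESCs for a part in differentiation, showed no common direction as a gene mean. The differences were -0.028 in the mock line, -0.14, 0.045 and -0.010 in I53S #1, I53S #4 and I53A #1, and -0.23 and 0.028 in the WT lines. Its 2 probe sets ran against each other. Probe set 1431951_a_at, with the higher mean signal, read 8.04 in OHT+ and 8.59 in OHT- cells of the mock line, 8.70 and 8.81 in I53S #1, 8.48 and 8.58 in I53S #4, and 8.20 and 8.37 in I53A #1. In the WT lines it read 8.48 in OHT+ and 8.42 in OHT- cells of #1, and 8.58 and 8.44 in #3. The mock and mutant differences were all below 0 and the WT differences above it. The other probe set, 1430203_at, gave 0.50 in the mock line, -0.17, 0.19 and 0.16 in the mutant lines, and -0.52 and -0.086 in the WT lines. With 1431951_a_at alone, the mock estimate was -0.55 (adjusted p = 0.118 by limma), against -0.028 for the gene mean (adjusted p = 0.948), and mutant minus WT lines stood at -0.23 (adjusted p = 0.531), against 0.065 (adjusted p = 0.908). Taking each gene by its probe set of highest mean, Asxl1 and Usp16 were the 2 of 8 genes whose mock and mutant lines all lay below both WT lines, where 10.9% of all genes did so.

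**Figure D2:**
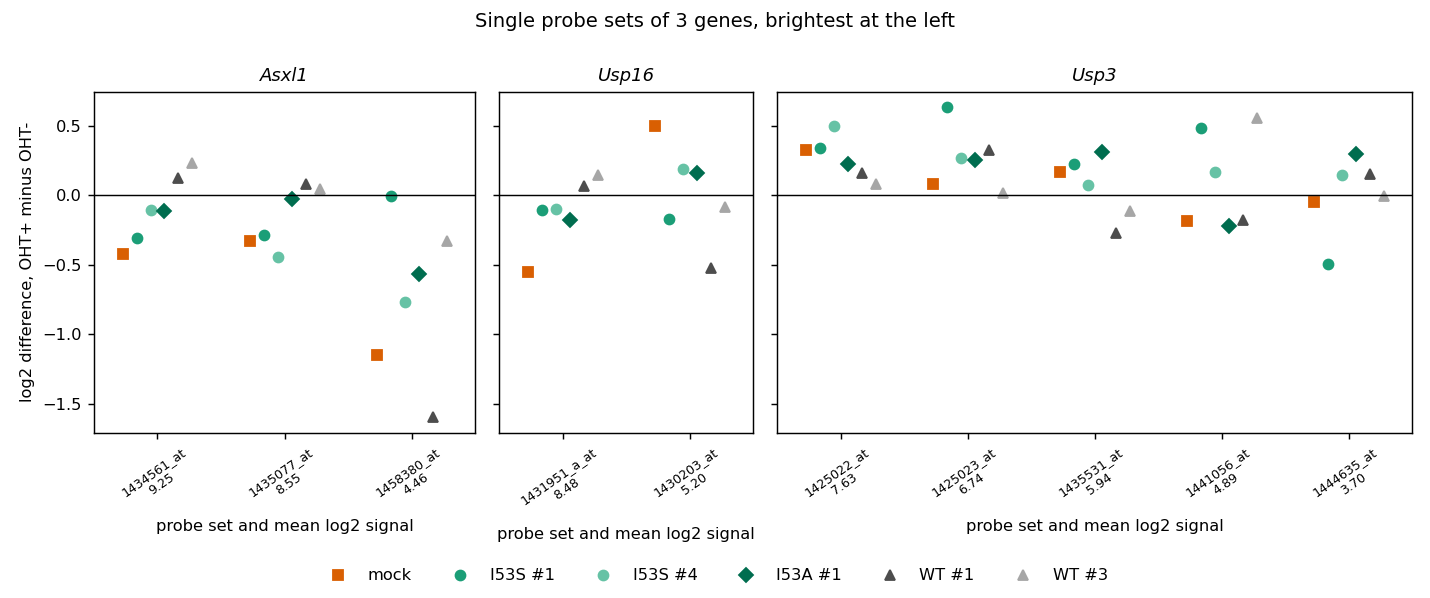
Log2 difference, OHT+ minus OHT-, at each probe set of Asxl1, Usp16 and Usp3 (vertical axis), with 1 point per line (mock, then the 3 mutant lines, then the 2 WT lines) and the mean log2 signal under each probe set's name. At the leftmost probe sets of Asxl1 and Usp16 the mock and mutant points lie below 0 and the WT points above it, and at that of Usp3 all 6 points lie above 0.

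Usp3, a chromatin-bound deubiquitinase of H2A known from human cells for its part in the DNA damage response, was the one of the 8 with a higher OHT+ signal in all 6 lines, where 7.97% of all genes were. With the values as deposited, Usp3 stood at -0.26 in the mock line, which is 0.083 relative to the median of all genes there (-0.34). The mock line read 5.76 in OHT+ and 5.69 in OHT- cells. The mutant lines read 5.82 and 5.59 in OHT+ and OHT- cells of I53S #1, 5.95 and 5.72 in I53S #4, and 6.03 and 5.86 in I53A #1. The WT lines read 5.63 and 5.59 in OHT+ and OHT- cells of #1, and 5.92 and 5.81 in #3. The differences of the mutant lines (0.23, 0.23 and 0.17) were above those of the mock line (0.067) and of the WT lines (0.038 and 0.11). Its brighter probe sets did not keep this order. At 1425022_at the mock line (0.33) lay above I53A #1 (0.22). At 1425023_at WT #1 (0.32) lay above I53S #4 (0.27) and I53A #1 (0.25). The estimate in the mutant lines was 0.21 ± 0.0829 (SE, 3 lines, 95% interval from 0.0080 to 0.417, adjusted p = 0.197 by limma), and for mutant minus WT lines it was 0.14 (95% interval from -0.182 to 0.465, adjusted p = 0.717).

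The Usp3 call depends on which of its 5 probe sets enter. A stricter filter, on the mean signal at the median of all values, leaves 1425022_at, 1425023_at and 1435531_at. Their mean differed by 0.40, 0.28 and 0.26 in I53S #1, I53S #4 and I53A #1, by 0.19 in the mock line, and by 0.072 and -0.0059 in the WT lines. Under that filter the estimate in the mutant lines was 0.31 ± 0.073 (95% interval from 0.136 to 0.490) and Usp3 was called higher (adjusted p = 0.0379 by limma, where 9.32% of the 11677 genes left were called higher). Over the 13 alternatives its adjusted p ran between 0.0379 and 0.537, and it was called under this filter alone. The difference of mutant minus WT lines was not called there either (0.28, adjusted p = 0.317). Probe set 1425022_at read 7.69 in OHT+ and 7.37 in OHT- cells of the mock line, 7.54 and 7.20 in I53S #1, 7.85 and 7.36 in I53S #4, 7.96 and 7.73 in I53A #1, 7.71 and 7.55 in WT #1, and 7.82 and 7.74 in WT #3. OHT+ was above OHT- in each line at this probe set and at 1425023_at, which derives from the same transcript record. The 2 probe sets that the stricter filter removes, 1441056_at and 1444635_at, gave differences of both signs among the mutant lines.

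Usp21, Usp22 and Mysm1 were not called under any setting tried. Usp21, known in mouse cells for acting on H2A and on Nanog, has 1 probe set, whose differences were 0.022 in the mock line, -0.12, -0.13 and 0.072 in the mutant lines, and -0.24 and -0.14 in the WT lines. Its mutant estimate was -0.057 ± 0.0914 (adjusted p = 0.757 by limma). Usp22 differed by 0.093 in the mock line, -0.34, -0.087 and 0.10 in the mutant lines, and 0.064 and -0.031 in the WT lines, with a mutant estimate of -0.11 ± 0.112 (adjusted p = 0.614). I53S #1 holds the sign of that estimate, which was 0.0079 without it. With the values as deposited, Usp21 and Usp22 stood at -0.33 and -0.27 in the mock line, close to the median of all genes there. Mysm1, best known for its role in blood cell formation in mice, differed by -0.17 in the mock line, -0.027, -0.18 and -0.41 in the mutant lines, and 0.061 and -0.069 in the WT lines, with a mutant estimate of -0.21 ± 0.107 (adjusted p = 0.313). The -0.41 of I53A #1 came from the dimmer probe sets 1439517_at and 1460159_at (-0.64 and -0.66), while 1437202_at stood at 0.079 in that line.

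**Figure D3:**
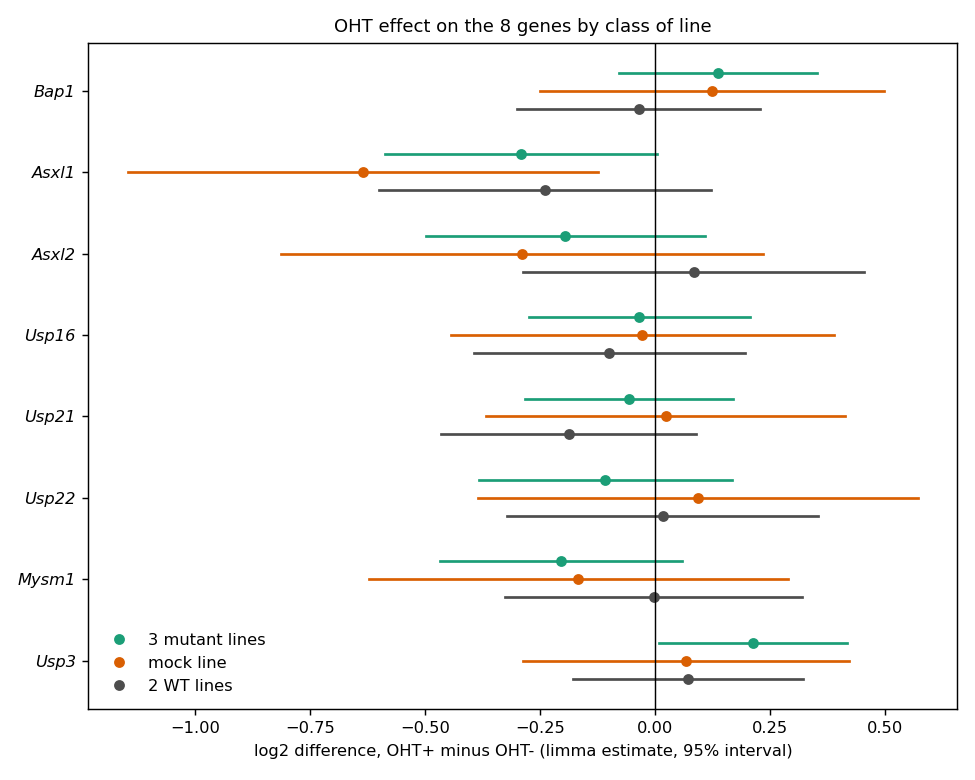
Estimated log2 difference, OHT+ minus OHT- (horizontal axis), for each of the 8 genes in the 3 mutant lines, the mock line and the 2 WT lines, with 95% intervals from limma. In the mutant lines the interval leaves out 0 for Usp3 alone (0.0080 to 0.417) and in the mock line for Asxl1 alone, and no gene passed after adjustment over all genes.

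The classes of lines were also set against each other in limma's fit, which tests whether the OHT response itself differed. For mutant minus WT lines, mock minus WT lines and mock minus mutant lines 0 of 8 genes were called, and so were 0% of all genes, while 0 of 8 had an unadjusted p under 0.05 in each, where 12.6%, 14.4% and 8.05% of all genes had. The Polycomb targets Zic1 and Hoxa10 also missed for mutant minus WT lines, at 2.19 and 2.01 (adjusted p = 0.088 for both by limma). The absence of calls among the 8 genes therefore does not show that their responses were equal. The first 2 of these comparisons share the WT lines. The estimates of mutant minus WT lines ranged over the 8 genes between -0.28 for Asxl2 and 0.17 for Bap1. Each rests on the 2 WT lines, since leaving out WT #1 or WT #3 gave -0.031 or -0.52 for Asxl2 and 0.095 or 0.25 for Bap1. In all, 3 of 8 genes had mutant and WT lines that did not overlap in the OHT difference, where 31.1% of all genes did not. With each gene taken by its probe set of highest mean it was 5 of 8 genes, again against 31.1%: Bap1, Usp21 and Usp3 with the mutant lines above, and Asxl1 and Usp16 with the mutant lines below.

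The other genes of H2A ubiquitin turnover were followed as 5 lists in the mutant lines. Of the PR-DUB partners, some of which anchor the complex to chromatin and transcription factors, 0 of 7 tested were called, with a median log2 difference of -0.058. The smallest p was that of Hcfc1, a chromatin cofactor bound by Bap1, with -0.29 in the mock line, -0.21, -0.057 and -0.22 in the mutant lines, and -0.072 and 0.078 in the WT lines. Foxk2, a forkhead factor that binds Bap1, came next with -0.42 in the mock line, -0.18, 0.02 and -0.24 in the mutant lines, and -0.033 and -0.0019 in the WT lines. Both lists of further deubiquitinases were without a call as well. Of the SAGA module and the Usp22 paralogs 0 of 7 tested were called (median -0.041). Atxn7l2, an ataxin relative named for its likeness to a SAGA subunit, had -0.90 in the mock line, -0.78, -0.16 and -0.38 in the mutant lines, and 0.24 and 0.35 in the WT lines. Its mock and mutant lines lay below both WT lines, where 15% of all genes had every mutant line below them. Of the other deubiquitinases reported on histones 0 of 8 were called (median -0.052). Usp46, a relative of Usp12, had 0.44 in the mock line, 0.47, 0.29 and 0.30 in the mutant lines, and 0.046 and 0.23 in the WT lines. Brcc3, an enzyme of the Brca1-A complex that cuts ubiquitin chains, had -0.58 in the mock line, -0.35, -0.19 and -0.51 in the mutant lines, and -0.12 and -0.29 in the WT lines.

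The one call among these lists was Rnf168, an H2A ligase of the DNA damage response that acts at other lysines than Ring1B, among the other H2A ligases (0 higher and 1 lower of 6 tested, median -0.17). Rnf168 differed by -0.61, -0.48 and -1.20 in I53S #1, I53S #4 and I53A #1, and fell by 0.76 on the log2 scale as the mutant estimate (SE 0.155, adjusted p = 0.0469 by limma). It also stood at -0.37 in the mock line and at -0.40 and -0.51 in the WT lines, so the mutant and WT lines overlapped. The call was lost under 8 of 13 alternatives, where the adjusted p reached 0.139, and among these was leaving out any single mutant or WT line. Without I53A #1 the estimate was -0.55 (adjusted p = 0.111). Of the readers of H2AK119u1, 0 of 5 tested were called (median 0.051). Yaf2, a PRC1 subunit that binds the mark, had 0.48 in the mock line, 0.63, 0.34 and 0.27 in the mutant lines, and 0.0079 and 0.12 in the WT lines. Its mutant and WT lines did not overlap, as was so for 31.1% of all genes. Rsf1, a chromatin remodeller subunit, had -0.21 in the mock line, -0.41, -0.21 and -0.40 in the mutant lines, and -0.25 and -0.047 in the WT lines. Over all genes, 4.91% were called higher and 1.55% lower in the mutant lines.

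**Figure D4:**
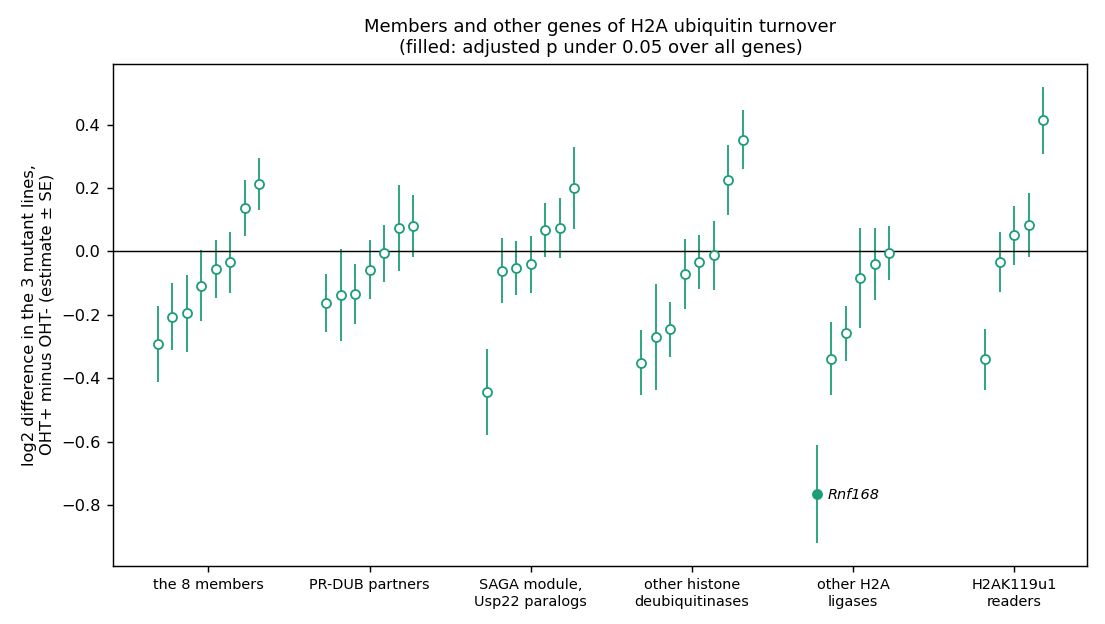
Estimated log2 difference, OHT+ minus OHT-, in the 3 mutant lines (vertical axis, estimate ± SE) for the 8 genes and for 5 lists of other genes of H2A ubiquitin turnover, with 1 point per gene. Rnf168 at -0.76 is the one filled point, which marks an adjusted p under 0.05, and the 8 genes lie between -0.29 and 0.21.

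Markers of fibroblasts, the feeder cells, differed with OHT in some lines. Of 8 listed, 6 were tested, and 5 of these were above 0 in the mutant lines, with Thy1 called higher (0.68). Their summed linear signal was 2331 in OHT+ and 1368 in OHT- cells of the mock line. In the mutant lines it was 2257 and 1305 in OHT+ and OHT- cells of I53S #1. In the same order, it was 1105 and 962 in I53S #4, and 815 and 782 in I53A #1. The WT lines gave 580 and 556 in OHT+ and OHT- cells of #1, and 847 and 865 in #3. Their part in the values of the 8 genes was not tested. Because these are bulk samples, a shift in the share of a cell type and a change of RNA per cell cannot be told apart.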

How the data were processed

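RNA was labelled and hybridised to Affymetrix mouse genome arrays by the authors. The values they deposited are log2 signals for every probe set of each array. The labels name Affymetrix Expression Console with RMA as the software, without versions, whereas the supporting methods name MAS5 signals followed by quantile normalization. The medians of the deposited log2 values differed between arrays (4.66 to 5.67), so all arrays were quantile normalized after 64 controls of 45101 probe sets had been left out. Of the rest, 34945 carry 1 symbol, 932 several and 9160 none, and only the first were used. A probe set was retained if its highest signal passed 3.94, the percentile 30 of all values, which left 30374, averaged per gene (16432 genes). Detection calls were not used. No array was a copy of another (highest correlation 0.990).

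Genes and, separately, single probe sets were fitted over all 12 arrays by limma 3.58.1 (statmod 1.5.0, R 4.3.3) using two-sided moderated tests from lmFit and eBayes. Each line was a block and each class of lines had its own OHT effect. There were 3 residual degrees of freedom and 2.79 from the prior. Levels before OHT were fitted by class on 6 arrays. Benjamini-Hochberg adjustment ran over all features tested, with calls under 0.05. Arrays are paired because they come from 1 cell line, and the deviations of its 2 arrays from their class means correlated across genes at 0.27 for the WT and 0.36 to 0.43 for the mutant lines. The fit was tested on simulated data with added differences of 1 or 2 log2 units, larger than any member estimate in the mutant lines. That test does not cover differences as small as those of the members. The members, the lists and the tests were chosen with earlier results of these data known. Named are all members, and for each of the 5 lists of pathway genes its called genes or up to 2 with the smallest p in the mutant lines; probe sets described singly were chosen after their values were seen. Of the listed genes, Mbd5, Usp51, Rybp and Fbn1 had no probe set with 1 symbol and Lum fell under the filter. Promoters come from RefSeq tables (GRCm38.p6). The 13 alternatives were values as deposited, arrays centred on their medians, the probe set with the highest mean, all probe sets unfiltered, only probe sets whose mean passed the median of all values, a trended and robust prior, no block, and each of the 6 lines left out.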

Additional observations from a re-analysis of the deposited data

How the results depend on the processing

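Across 13 alternatives, 27 member results gave 340 values, of which 324 kept direction and side of the threshold, 14 changed sign and 2 passed the threshold. The number of members called was 1 instead of 0 in the mock line with values as deposited (Asxl1) and 1 instead of 0 in the mutant lines with the filter on the mean (Usp3). With values as deposited, the mock estimates turned to -0.27 for Bap1, -0.33 for Usp21, -0.27 for Usp22 and -0.26 for Usp3, mutant minus WT lines to -0.055 for Usp16, and levels before OHT to 0.21 for Asxl2 and 0.16 for Mysm1. The median of all genes in these comparisons stood at -0.34, -0.13 and 0.28. Relative to it the values were 0.066, 0.012, 0.071, 0.083, 0.070, -0.075 and -0.12 in the same order, each with the sign of the main fit. With the probe set of highest mean, mutant minus WT lines turned to -0.23 for Usp16 and 0.053 for Usp22. Leaving out 1 line moved mutant minus WT lines for Asxl1 between -0.28 and 0.18 (0.016 without I53S #4, 0.18 without WT #3) and for Usp16 between -0.062 (without WT #1) and 0.19, and the mutant estimates between -0.075 and 0.018 for Usp16 and between -0.21 and 0.0079 for Usp22, whose positive ends are without I53S #1. None of the turned values was called. Without the block of the line, the count of members called stayed at 0 in every OHT comparison, and the genes called were 563 (mutant lines) and 97 (mock line), against 1062 and 275 with it. These counts were 1777 and 883 with the filter on the mean, 2219 and 1340 with the trended prior, 153 to 695 in the mutant lines where leaving out a line moved the count by over 1.5 times, and 0 in the mock line when any mutant or WT line was left out; values as deposited gave 922 in the mock line and 41 before OHT. For mutant minus WT lines, with 0 genes called, the mean filter gave 47 and the trended prior 272, for mock minus WT lines 17 and 453, and for mock minus mutant lines the trended prior gave 1. The causes were not tested. The number of lines and dim signals, such as 1458380_at of Asxl1 (3.35 to 5.17), limit the precision.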

Other observations

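Over the 12 arrays, the genes whose log2 signal ran most like that of Bap1 were Mfhas1, Ddb1 and Col2a1 (Pearson r = 0.94, 0.93 and 0.92). The arrays of a line share that line, and these genes were picked as the highest of all genes tested, so this is a description. The 5 probe sets of Asxl2 and of Usp3, and the 3 of Mysm1, also differed among themselves. For Mysm1, 1460159_at read 4.42, 4.04 and 4.26 before OHT in I53S #1, I53S #4 and I53A #1, against 5.24 and 4.83 in WT #1 and WT #3, while 1437202_at read 7.22, 7.42 and 7.37, against 7.30 and 7.39.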
